A study of Drosophila melanogaster with 12 samples.

Results

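The transcripts described here are those of the cytosolic ribosomal proteins, the protein parts of the ribosomes that translate nuclear mRNAs. They were taken as all probe sets that the annotation of the Affymetrix Drosophila Genome 2.0 array assigns to only 1 gene, where the symbol of that gene begins with RpL or RpS followed by a digit or P. This gave 47 probe sets of 41 genes among the 18769 probe sets of the array that are not manufacturer's controls. The groups were loj mutant females (loj 00898/loj 04026) and control females, in which loj 00898/+ and loj 04026/+ heterozygotes were pooled in equal parts, so that the controls also carried 1 mutant allele each. All were 4 days old, were kept at 25°C and had mated once with a wild-type male. From each genotype, abdomens (ovaries, genital tract, gut and fat) and the remaining head/thorax (with the brain, the nerve cord and the flight muscles) were taken 3 h after mating, 12 females to a sample and 3 samples to each of the 4 groups. The study asked whether loss of Loj, a p24 protein of the early secretory pathway, sets off a stress response of the endoplasmic reticulum.

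A ribosome has a small and a large subunit, whose proteins are named RpS and RpL, and most of them are needed in each ribosome in a single copy. Their genes are therefore transcribed strongly and together in nearly all cells, and flies with only 1 working copy of many of them show the Minute phenotype of slow development and thin bristles. In Drosophila several of these genes also have a second copy, or paralog, that is used mainly in the ovary or the testis, and a few genes named as ribosomal protein-like encode relatives that help to assemble ribosomes and are not part of the finished particle. The gene rp49, now called RpL32, is a common reference gene in measurements of fly RNA levels.

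In the loj mutants the targeted transcript was nearly absent. The loj probe set read 37.5 to 43.2 in loj abdomens against 921 to 1087 in control abdomens, and 30.9 to 40.3 in loj head/thoraces against 1034 to 1220 in control head/thoraces. Values are linear intensities, with no statement of the scaling between arrays. Array medians were 93.4 to 102 (abdomen) and 145 to 160 (head/thorax), so the values of both body parts were compared as deposited and after each array had been centred on its own median. The background level of an array, the 95th percentile of its 27 probe sets for Bacillus subtilis RNAs, was 76.8 to 131 for abdomens and 126 to 256 for head/thoraces. Of the 41 genes, 37 had 1 probe set, 2 had 2 and 2 had 3. RpS3, RpS6 and most other ribosomal protein genes, 51 of the 92 genes whose current symbol fits the rule, have no such probe set in the annotation and were not analysed here. A total of 14 of the 47 probe sets have names ending in _s_at, which the manufacturer gives to probes that match several transcripts, so signal from paralogs cannot be told apart there.

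Most ribosomal protein transcripts were at the upper end of the intensity scale in every sample, and 32 probe sets of 31 genes were among the highest 5% on all 12 arrays. They included RpL41, the smallest protein of the large subunit, which read 17393 to 18434, RpLP1, a protein of the stalk that binds translation factors (15408 to 16624), and RpS18, a protein of the small subunit (15182 to 16297). These 3 had the highest mean intensities of the 47. RpL41 read 18434, 18336 and 17529 in loj abdomens, 18194, 18378 and 17997 in control abdomens, 17776, 17841 and 17704 in loj head/thoraces and 17735, 17587 and 17393 in control head/thoraces. The loj and control values overlapped in abdomen, and in head/thorax only the lowest loj value lay within the control range. An intensity depends on the probes as well as on the transcript, so these positions on the scale do not rank the transcripts by abundance. A further 8 probe sets were above the background level on every array of at least 1 group but left the highest 5% on some array: RpS5b, RpL7-like, RpLP0-like, RpS10a, RpL10Aa, 1 of 2 for RpS30 and 2 of 3 for RpL3. The other 7 were at the background level in all 4 groups: RpS28a, RpS28-like, RpL37-2, RpL22-like, RpS19b, 1 of 2 for RpS7 and 1 of 3 for RpS29. The probe sets of the lowest mean intensity were those of RpL22-like, RpS19b and the dim one of RpS29.

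**Figure D1:**
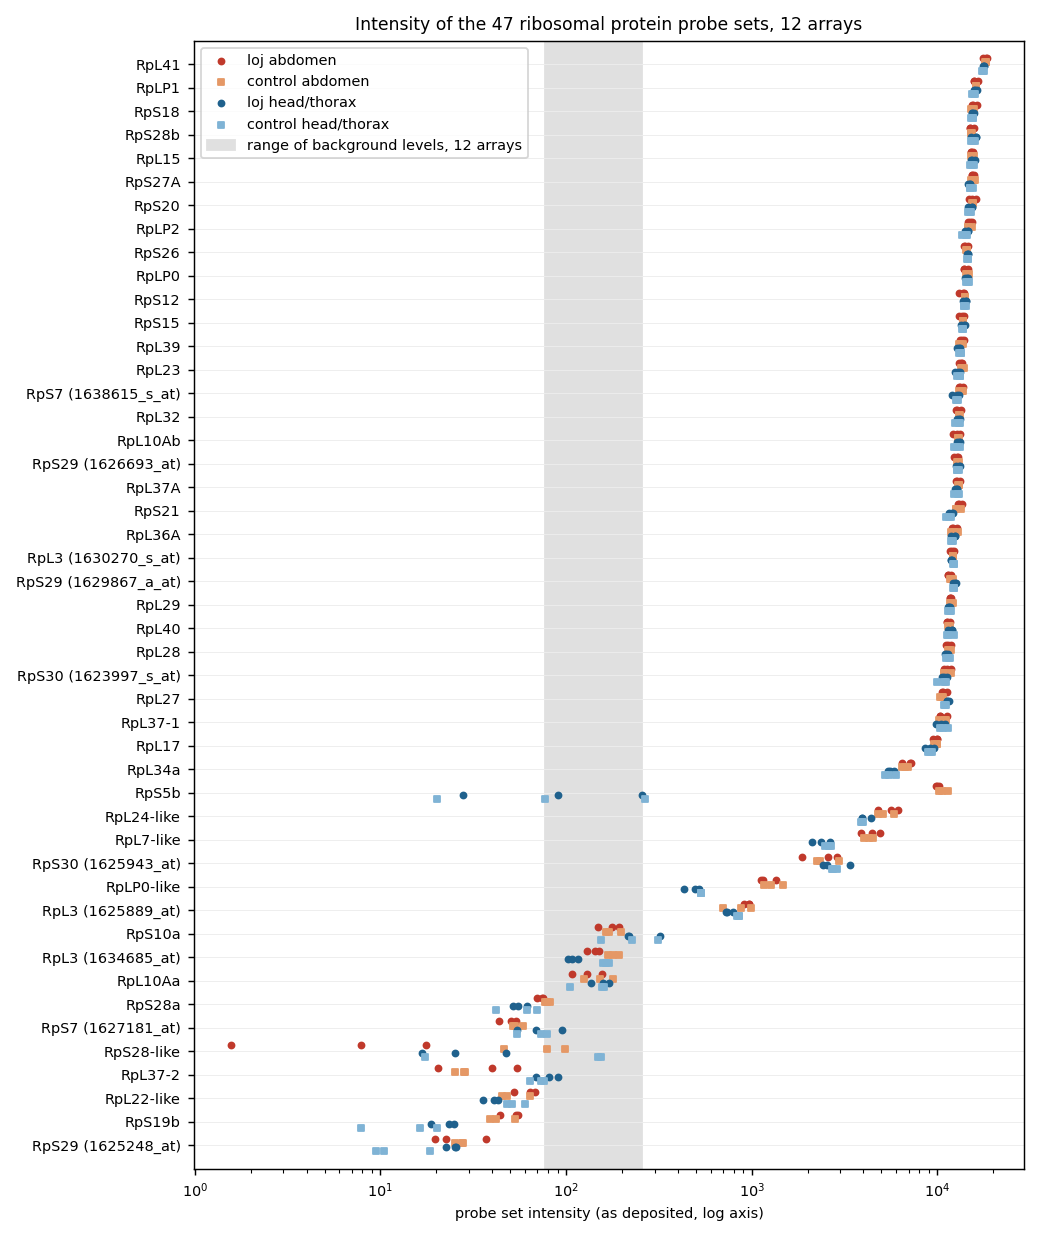
Intensity of the 47 ribosomal protein probe sets on each of the 12 arrays (horizontal log axis, intensity as deposited), with circles for loj and squares for control, red for abdomen and blue for head/thorax. The grey band spans the background levels of the arrays, 76.8 to 256; the upper probe sets form tight columns of points above 3865, RpS5b splits by body part, and 7 probe sets lie at the background.

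The 32 bright probe sets were chosen as those in the highest 5% on every array, which left out any that fell far on some arrays, such as RpS5b. As deposited, these 32 varied little over all 12 samples. Their coefficient of variation over the 12 arrays was 1.51% to 17.5%, with a median of 2.67%, and the highest reading of a probe set was 1.05 to 1.59 times its lowest. The steadiest was RpS26, a protein of the small subunit, at 1.51%, while RpS21 had 6.40%, RpL34a 11.4% and RpL24-like 17.5%. RpS26, RpS21 and RpL34a are named here after their values were seen. RpL32, the control gene of the study's quantitative PCR, had 2.19%. It read 13433, 12780 and 12630 in loj abdomens, 13040, 13234 and 13116 in control abdomens, 13013, 13186 and 12760 in loj head/thoraces and 13127, 13242 and 12471 in control head/thoraces, and the loj and control values overlapped in both body parts. A small spread was common at the top of the scale. The highest reading of an array was 17529 to 18434 in abdomens and 17735 to 17992 in head/thoraces. The 99th percentile was 6795 to 7948 and 10119 to 10669. Whether signals near the maximum are compressed was not tested, so the spreads and changes of bright probe sets describe intensities and do not bound those of the transcripts. Among the probe sets in the highest 1% on all arrays, the median coefficient of variation was 2.46% for the 27 of ribosomal proteins and 3.04% for the 79 others. The highest 5% differed more, with 2.67% for the 32 of ribosomal proteins and 13.3% for the 385 others. Between body parts, averaged over genotypes, none of these 32 differed by more than 1.5-fold as deposited, while 117 of the 385 others did, and in the highest 1% this was 10 of the 79 others. The array medians differed between body parts, and after median centring 27 of the 32 and 184 of the 385 others differed by more than 1.5-fold.

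Where a gene had several probe sets, they could give different pictures. RpL3, a protein close to the catalytic centre of the large subunit, had a bright probe set (1630270_s_at, 11716 to 12351), a middling one (1625889_at, 700 to 993) and a dim one (1634685_at, 102 to 193). RpS29 had a pair at 11350 to 13275 and a dim one (1625248_at) at 9.43 to 37.1, below the background level. RpS7 had one at 11986 to 13720 and one (1627181_at) at 43.3 to 94.6. RpS30, made as a fusion with a ubiquitin-like protein, had one at 10020 to 11892 and one (1625943_at) at 1872 to 3396. Only the bright probe sets of these genes were among the highest 5% on all arrays. A level or change of a dimmer one is therefore given by its own values below.

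In abdomens, no ribosomal protein probe set was called higher or lower in loj mutants, at an adjusted p under 0.05 (limma with Benjamini-Hochberg adjustment over all 18769 probe sets) and at least 1.5-fold. Over the whole array 0.618% of probe sets were called higher and 0.256% lower, and without the fold minimum, where again no ribosomal protein was called, 0.693% and 0.362%. At an unadjusted p under 0.05, 2 of the 47 (4.26%) differed, RpS28-like and the dim RpL3 probe set, beside 13.9% of all probe sets. The median log2 change of the 47 was -0.014, with 14 above 0 and 33 below, beside a median of -0.032 and 44.0% above 0 over all probe sets. The changes of the 32 bright probe sets lay between -0.043 and 0.068 on the log2 scale. Their 95% intervals lay between -0.23 and 0.37, which are folds of intensity of 0.850 to 1.29. In 5 probe sets the loj values all lay below the control values (RpS12, RpS5b, the dim RpL3, RpS28a and RpS28-like) and in 0 all above, where 10.6% and 8.96% of all probe sets did so. After median centring the median change of the 47 was -0.0056, with 18 above 0.

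The ribosomal proteins with particular roles showed the same. RpLP0, the base of the stalk, averaged 14135 ± 419 in loj abdomens and 14488 ± 280 in control abdomens (SD, n = 3 each), a log2 change of -0.036 (SE 0.070, adjusted p = 0.871, limma). The log2 changes of its partners RpLP1 and RpLP2 were -0.010 and 0.020. RpL40 and RpS27A, which are made as fusions with ubiquitin, had log2 changes of -0.023 and -0.0094. RpL32 had a log2 change of -0.021 (SE 0.068, adjusted p = 0.931, limma) with a 95% interval of -0.19 to 0.15. RpS5b, a protein of the small subunit that is used in the female germline, read 10174, 9908 and 9888 in loj abdomens against 10649, 11459 and 10179 in control abdomens. All 3 loj values were below the control values, but the log2 change of -0.11 did not pass the test (SE 0.073, adjusted p = 0.608, limma; 95% interval -0.29 to 0.074). In the same samples the summed intensity of 8 germline markers was 16394 to 19148 in loj abdomens and 18046 to 22507 in control abdomens, and that of 9 follicle cell markers 38990 to 49312 in loj abdomens and 46975 to 70020 in control abdomens; none of these markers was called, and the part of such differences in the RpS5b values was not tested. Fewer cells of a type and less RNA per cell cannot be told apart in such samples.

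In head/thoraces, 1 ribosomal protein probe set was called lower in loj mutants and 0 higher, beside 0.778% and 1.09% of all probe sets. Without the fold minimum the counts were the same, beside 1.63% lower and 1.81% higher. The called one was the dim RpL3 probe set, at 102, 107 and 116 in loj head/thoraces against 169, 158 and 163 in control head/thoraces. The groups did not overlap and the log2 change was -0.60 (SE 0.10, adjusted p = 0.0432, limma), but all 6 values were below the background level of their arrays, so no fold is given. The adjusted p was 0.121 with the replicate number as a block, and 0.0703 to 0.173 with each array in turn left out. The middling RpL3 probe set read 740, 729 and 790 in loj head/thoraces and 858, 855 and 831 in control head/thoraces, a log2 change of -0.17 (SE 0.048) that passed at an unadjusted p of 0.0118 and not after adjustment (0.136, limma). The bright RpL3 probe set is annotated to the same gene, but its name ends in _s_at. It read 11883, 11953 and 11839 in loj head/thoraces against 12230, 12259 and 12133 in control head/thoraces. Its log2 change was -0.038 (SE 0.028, adjusted p = 0.556, limma). All 3 RpL3 probe sets thus had loj values below control values in head/thorax. In abdomen their log2 changes were -0.013, 0.15 and -0.36, from the bright to the dim one, and none was called.

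The other ribosomal proteins of head/thorax had a median log2 change close to 0. Over the 47 it was 0.0069, with 27 above 0 and 20 below, beside -0.0061 and 48.7% above 0 over all probe sets. After median centring it was -0.014, with 18 above 0, so the direction of this small shift depended on the scaling. The 32 bright probe sets lay between -0.056 and 0.053 on the log2 scale. Their 95% intervals lay between -0.19 and 0.18, or folds of intensity of 0.878 to 1.14. RpL32 had a log2 change of 0.0048 (SE 0.037, adjusted p = 0.970, limma) with a 95% interval of -0.086 to 0.096, and after median centring its change was -0.016. In 5 probe sets the loj values were all below the control values (3 of RpL3, RpLP0-like and RpL22-like), and in 2 all above (RpL27, a protein of the large subunit, and the dim RpS29), where 12.5% and 11.3% of all probe sets were.

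**Figure D2:**
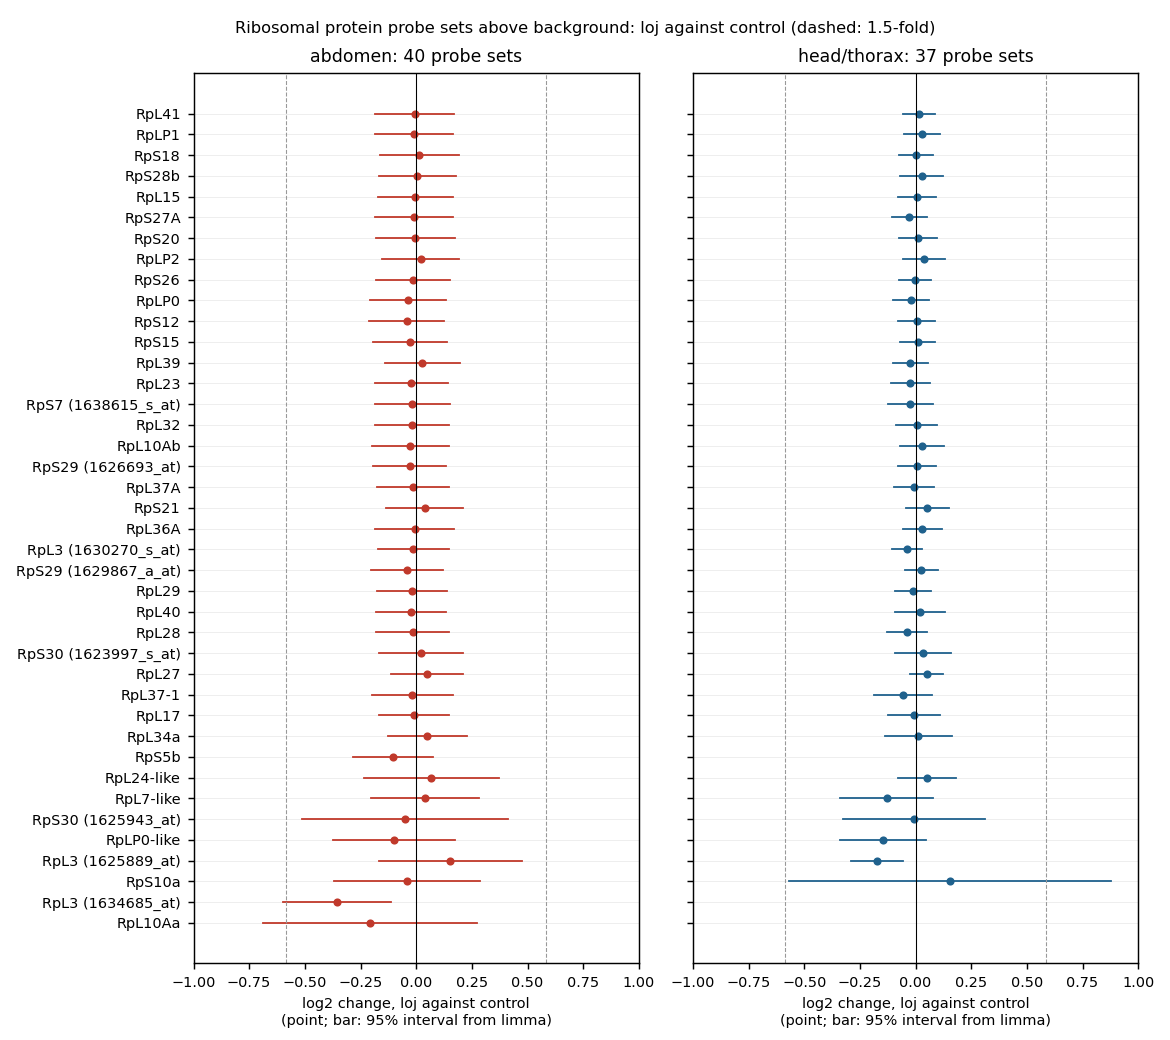
Log2 change of loj against control with its 95% interval for the ribosomal protein probe sets above the background level in all samples of at least 1 of the groups compared, 40 in abdomen (left) and 37 in head/thorax (right). Dashed lines mark 1.5-fold; the bright probe sets lie between -0.056 and 0.068, and the widest intervals belong to the dim probe sets below them.

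The loj change did not differ by body part for any of the 47 probe sets at an adjusted p under 0.05 (limma, interaction over all 12 arrays), beside 0.234% of all probe sets with a higher change in head/thorax and 0.272% with a lower one. At an unadjusted p under 0.05 there were 3 of the 47 (6.38%), the dim RpL22-like and RpS29 probe sets and the middling RpL3, beside 9.38% of all probe sets. The intervals of the difference for the 32 bright probe sets lay between -0.31 and 0.28 on the log2 scale. The median difference of the 47 was 0.015, and -0.015 after median centring.

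Small shifts shared by the bright probe sets separated single samples, and the genotypes overlapped. Relative to the control mean of the body part, the median of the 32 was 0.028, -0.029 and -0.027 on the log2 scale in loj abdomens and -0.0022, 0.021 and -0.016 in control abdomens. In loj abdomen sample 1, 29 of the 32 were above the control mean, and in sample 3 only 4. Head/thorax samples had medians of 0.019, 0.027 and -0.023 for loj and 0.0092, 0.018 and -0.027 for control. Sample 3 was lowest in both genotypes, with 7 and 3 of the 32 above the control mean. Over all probe sets, the median of the same difference from the control mean was 0.041 in loj and -0.0026 in control head/thorax sample 3. In loj abdomens it was 0, -0.017 and -0.035. The part of array scale in these shifts was not tested.

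**Figure D3:**
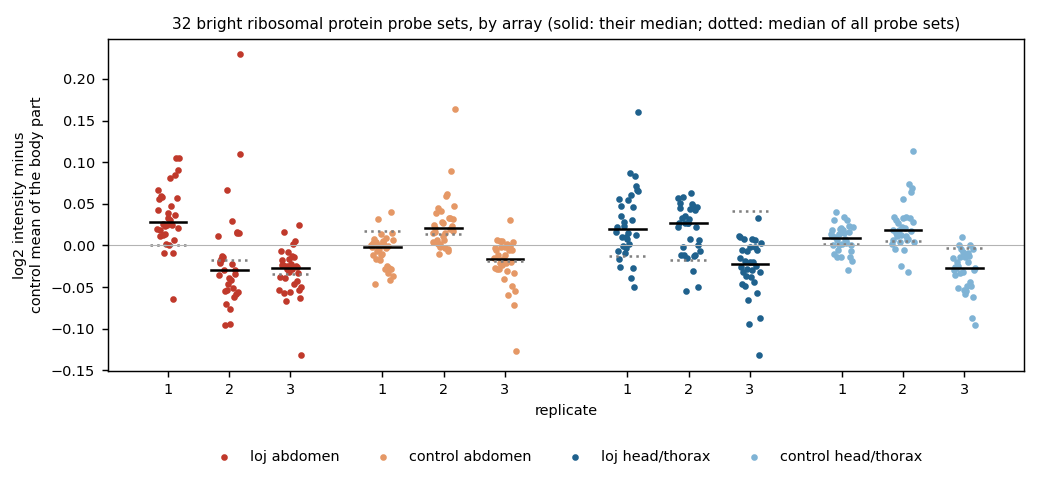
Log2 intensity of the 32 bright ribosomal protein probe sets on each array minus the mean of the 3 control arrays of that body part (points). The solid line is their median, and the dotted line is the median of the same difference over all probe sets. The medians of the 32 lie between -0.029 and 0.028, and those of loj and control samples overlap in both body parts.

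Between body parts, the ribosomal protein probe sets fell into a large group that was nearly level as deposited and a few that were higher in abdomen, RpS5b by far the most. In controls, 5 probe sets were called higher in abdomen than in head/thorax (RpS5b, RpLP0-like, RpL7-like, RpS19b and the dim RpS29) and 1 lower (RpL37-2), beside 22.6% and 33.0% of all probe sets. In loj females, 5 were called higher (RpS5b, RpLP0-like, RpL7-like, RpS19b and RpL22-like) and 1 lower (RpL37-2), beside 21.3% and 34.3%. RpS5b, RpLP0-like and RpL7-like were above background, and RpS19b, RpL22-like, RpL37-2 and the dim RpS29 were at background in both body parts. Without the fold minimum the counts were 8 higher and 1 lower in controls, beside 26.8% and 36.8%, and 10 higher and 2 lower in loj females, beside 25.6% and 38.1%. Those under the fold minimum were RpL24-like, RpL34a and RpS21 in both genotypes and, in loj females, the middling and the dim RpL3, all higher, and RpS10a, which was lower.

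RpS5b set abdomens apart from head/thoraces more than any other ribosomal protein probe set above background. In head/thoraces it read 255, 90.7 and 27.7 in loj and 76.7, 20.2 and 267 in control females, above the background level on 1 of 3 arrays in each genotype, against 9888 to 10174 in loj and 10179 to 11459 in control abdomens. It was at least 50.9-fold higher in abdomen in loj females (adjusted p = 1.16e-04, limma) and at least 47.2-fold higher in controls (adjusted p = 2.26e-04, limma). For these bounds, the higher of the background level and the reading itself was taken on each head/thorax array. The ranges did not come near each other. Abdomens hold the ovaries, and the 8 germline markers, such as osk and bcd, gave sums of 16394 to 22507 there and 1112 to 1313 in head/thoraces, with 7 called higher in abdomen and 1, grk, lower in each genotype. Another small subunit protein of the germline, RpS19b, known from early ovarian germ cells, read 43.9 to 54.9 in loj and 38.9 to 52.9 in control abdomens and 18.6 to 24.8 in loj and 7.90 to 20.1 in control head/thoraces. It passed the test in both genotypes (adjusted p = 0.00471 in loj and 0.00901 in controls, limma), but all values were below background.

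The 3 genes RpLP0-like, RpL7-like and RpL24-like, named for their likeness to ribosomal proteins, had higher values in abdomen in both genotypes. In yeast the relatives of their products act in the assembly of the large subunit: Mrt4, the relative of RpLP0-like, holds the place of P0; Rlp7 resembles L7; and Rlp24, the relative of RpL24-like, holds the place of L24. RpLP0-like read 1158, 1351 and 1125 in loj abdomens against 523, 434 and 494 in loj head/thoraces, a log2 change of 1.32 (SE 0.10, adjusted p = 2.48e-05, limma). In controls it read 1264, 1468 and 1170 in abdomens against 533, 532 and 536 in head/thoraces, a log2 change of 1.28 (SE 0.092, adjusted p = 1.91e-05, limma). The groups were far apart in both genotypes. RpL7-like read 4445, 4883 and 3904 in loj abdomens against 2121, 2353 and 2648 in loj head/thoraces, with a log2 change of 0.89 (SE 0.11, adjusted p = 2.88e-04, limma). Its control values were 4517, 4276 and 4026 in abdomens and 2658, 2623 and 2482 in head/thoraces, with a log2 change of 0.72 (SE 0.063, adjusted p = 4.90e-05, limma). RpL24-like passed the adjusted p and not the fold minimum. It read 5622, 6127 and 4769 in loj abdomens against 4401, 3920 and 3946 in loj head/thoraces, and 5095, 5855 and 4786 in control abdomens against 4000, 3949 and 3865 in control head/thoraces, with log2 changes of 0.42 (SE 0.10, adjusted p = 0.00816) and 0.41 (SE 0.080, adjusted p = 0.00349, limma). Between genotypes, the values of RpL7-like and RpL24-like overlapped in both body parts, as did those of RpLP0-like in abdomen; in head/thorax the log2 change of RpLP0-like was -0.15 (SE 0.078, adjusted p = 0.410, limma) with all loj values below the control values.

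**Figure D4:**
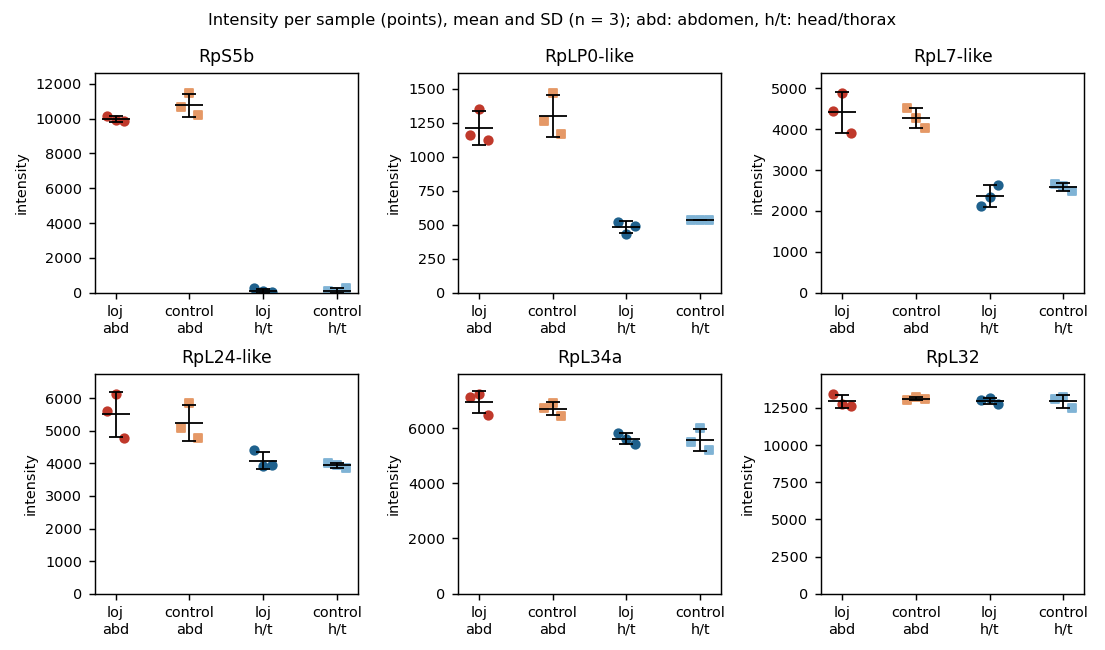
Intensity per sample (points) with mean and SD (n = 3 samples) for RpS5b, RpLP0-like, RpL7-like, RpL24-like, RpL34a and RpL32 in the 4 groups, each axis starting at 0. RpS5b is at 9888 to 11459 in abdomens and 20.2 to 267 in head/thoraces, the 3 -like genes and RpL34a are higher in abdomens of both genotypes, and RpL32 is level at 12471 to 13433.

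Of the ribosomal proteins of the ordinary kind, RpL34a and RpS21 also passed the adjusted p in both genotypes, with changes under 1.5-fold. RpL34a, the only RpL34 copy with a probe set here, read 7134, 7228 and 6470 in loj abdomens against 5816, 5585 and 5438 in loj head/thoraces, and 6730, 6922 and 6451 in control abdomens against 5489, 6017 and 5205 in control head/thoraces. The log2 changes were 0.31 (SE 0.061, adjusted p = 0.00347) in loj females and 0.27 (SE 0.068, adjusted p = 0.0113, limma) in controls, and the body parts did not overlap. RpS21, a protein of the small subunit, read 12890 to 13624 in loj abdomens against 11569 to 12219 in loj head/thoraces and 12602 to 13418 in control abdomens against 11119 to 11779 in control head/thoraces. Its log2 changes were 0.15 (SE 0.048, adjusted p = 0.0312) and 0.16 (SE 0.052, adjusted p = 0.0289, limma), and with the replicate number as a block the adjusted p in loj females was 0.0565. With an array left out, RpS21 passed in loj females only without abdomen replicate 3 (adjusted p 0.0207, and 0.0638 to 0.127 without any other), and in controls only without abdomen replicate 3 (0.0317, and 0.0511 to 0.106 without any other), while RpL34a passed each time (up to 0.0182 and 0.0476, limma). The block also moved the adjusted p of the dim RpL3 there to 0.0613, against 0.0328 without it (limma).

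For the large group, whether abdomen and head/thorax differed depended on the scaling. As deposited, the median log2 change of the 47 was 0.026 in loj females and 0.021 in controls, with 28 and 33 above 0, beside medians of -0.29 and -0.22 over all probe sets. Median centring raised each value by the same amount within a genotype, and the medians became 0.65 and 0.61 with 45 and 46 of the 47 above 0, beside 0.33 and 0.37 and 60.5% and 62.2% above 0 over all probe sets. The calls then were 35 higher and 0 lower in loj females, beside 35.3% and 21.3% of all probe sets, and 35 higher and 1 lower in controls, beside 37.3% and 21.4%. With quantile normalization they were 9 higher and 0 lower in loj females, beside 27.5% and 25.6%, and 10 higher and 1 lower in controls, beside 29.4% and 25.4%, with median log2 changes of 0.22 and 0.19. RpL32 shows the same dependence, with log2 changes as deposited of -0.0047 in loj females and 0.021 in controls, and after median centring of 0.62 (adjusted p = 3.56e-04) and 0.61 (adjusted p = 4.90e-04, limma). The array medians that the centring uses lie near the background level, while the bright probe sets read 3865 or more. RpS5b, RpLP0-like, RpL7-like and RpS19b were called higher in abdomen under each of the 3 scalings in both genotypes.

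**Figure D5:**
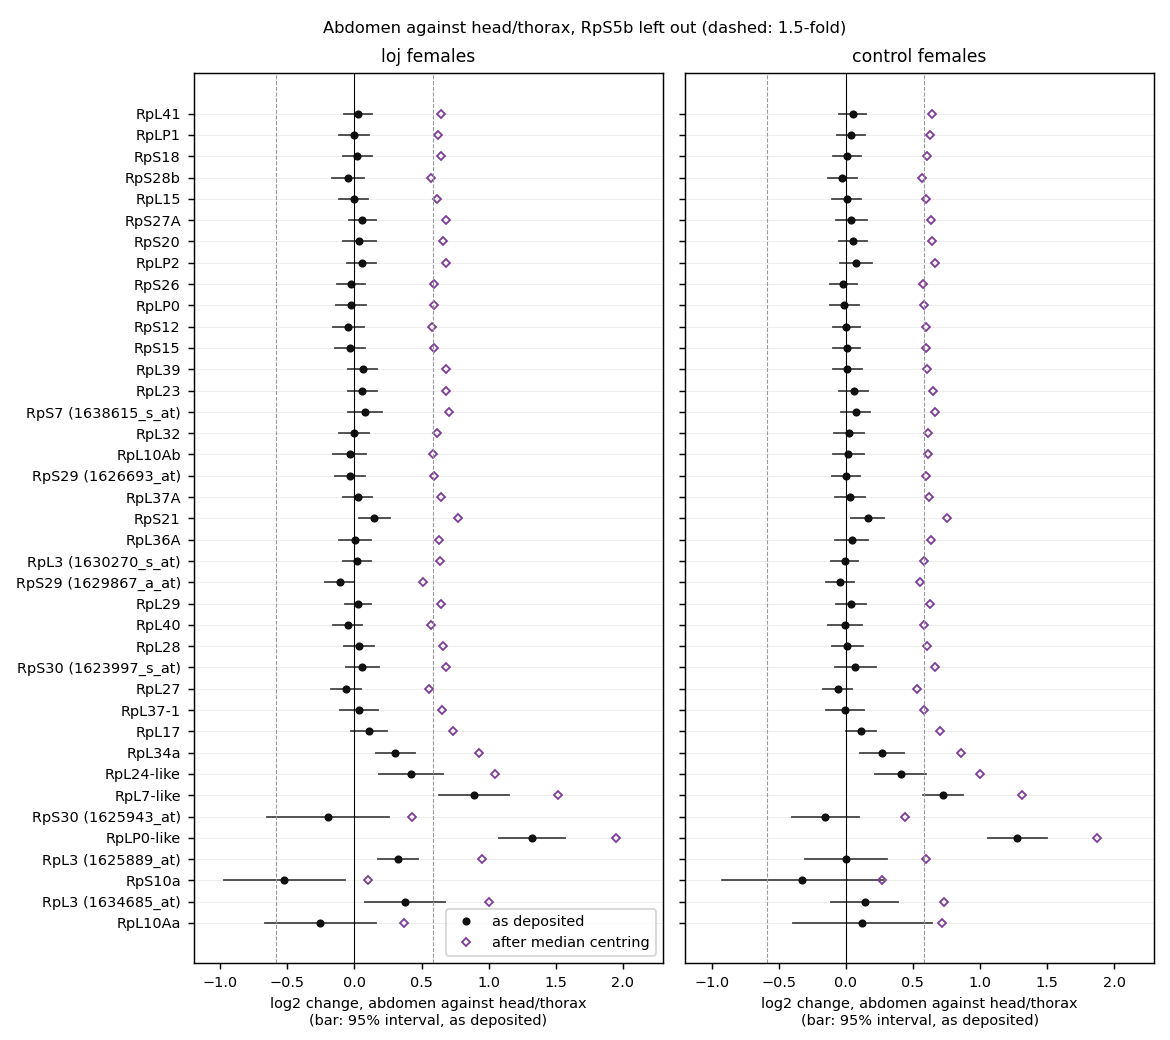
Log2 change of abdomen against head/thorax in loj (left) and control females (right) for 39 ribosomal protein probe sets above background in some group, RpS5b left out for its size, as deposited (filled points with 95% intervals) and after median centring (open diamonds). As deposited most points lie at 0 and RpLP0-like and RpL7-like lie beyond the dashed 1.5-fold line; after centring all points move right, most of them to about 0.6.

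The remaining paralogs read low. RpS10a, a second copy of the small subunit protein RpS10, read 148, 177 and 194 in loj abdomens, 171, 164 and 197 in control abdomens, 218, 215 and 321 in loj head/thoraces and 154, 228 and 312 in control head/thoraces. Its log2 change between body parts was -0.52 in loj females (SE 0.19, adjusted p = 0.0471, under the fold minimum, limma) and -0.33 in controls (adjusted p = 0.300, limma), and after median centring 0.10 and 0.27, so its direction depended on the scaling. RpL10Aa read 104 to 178 over all samples, with overlapping groups, while its bright partner RpL10Ab read 12135 to 13312. RpS28a, at 42.0 to 82.2, and RpS28-like, at 1.57 to 154, were at background, while the bright RpS28b read 14978 to 16115. RpS28-like had 7.90, 1.57 and 17.6 in loj abdomens and 79.3, 46.2 and 98.2 in control abdomens, with no overlap and an adjusted p of 0.156 (limma), all below background. RpL22-like, a copy used in the testis, read 35.5 to 68.2 and RpL37-2 20.5 to 90.2 over all samples, below background throughout, while RpL37-1 read 9897 to 11368. With the replicate number as a block the adjusted p of RpL22-like between body parts in loj females was 0.0802.

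The genes that build ribosomes were mostly higher in abdomen, where 21.3% of all probe sets were called higher in loj females and 22.6% in controls (34.3% and 33.0% lower). Of 28 genes of ribosome biogenesis listed (rRNA synthesis, processing and particle assembly), 24 had a probe set of their own, and 21 were called higher in abdomen in loj females and 22 in controls, with 0 lower and median log2 changes of 1.36 and 1.51. Nop60B, the pseudouridine synthase of rRNA, averaged 4097 in loj abdomens against 510 in loj head/thoraces, and 4102 in control abdomens against 610 in control head/thoraces. Surf6, a nucleolar protein, had log2 changes of 2.56 (adjusted p = 9.99e-07) in loj females and 2.65 (adjusted p = 4.03e-06, limma) in controls. For translation initiation, 5 of 23 measured genes were called higher in loj females and 4 in controls, not far from the shares of all probe sets called higher. In both genotypes 0 were called lower, beside 34.3% and 33.0% of all probe sets. Among those called higher was eIF2beta, a subunit of the factor that brings the initiator tRNA, with log2 changes of 0.87 and 0.97. For elongation and termination, 2 of 5 were called higher and 1 lower in both genotypes; the lower one was eEF1alpha2, an elongation factor, which averaged 107 in loj abdomens, near background, against 7814 in loj head/thoraces and 129 in control abdomens against 7791 in control head/thoraces. For regulators of the TOR and Myc pathways, 5 of 13 were called higher and 3 lower in loj females, and 5 higher and 1 lower in controls. Of the 69 mitochondrial ribosomal protein genes, 38 were called higher and 2 lower in loj females and 41 and 2 in controls, with median log2 changes of 0.75 and 0.77.

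Between genotypes, none of the 24 biogenesis genes was called in either body part. Over all probe sets, 0.618% were called higher and 0.256% lower in abdomen, and 1.09% and 0.778% in head/thorax, so few or no calls are the usual count for lists of this size. Their log2 changes in loj mutants had a median of -0.18 in abdomen, with 2 of 24 above 0, and of -0.12 in head/thorax, with 5 above 0, and after median centring -0.17 and -0.15. None of the initiation, elongation or TOR and Myc genes was called, with medians between -0.036 and 7.3e-05. Of the mitochondrial ribosomal proteins 1 gene, mRpL24, was called lower in each body part and 0 higher. Its call in abdomen (adjusted p = 0.0440, limma) was lost with median centring (0.0612), with the replicate block (0.0972) and with any array left out (0.0545 to 0.169), while that in head/thorax (0.00203) was kept in each of these settings, with adjusted p up to 0.0282. The medians of the 69 genes were -0.073 in abdomen, with 13 of 69 above 0, and -0.079 in head/thorax, with 21 above 0. Of all probe sets, 44.0% were above 0 in abdomen and 48.7% in head/thorax, with medians of -0.032 and -0.0061.

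Markers of follicle cells, photoreceptors, flight muscle and neurons followed the dissection, while those of fat body and of sperm and testis did not separate the body parts clearly. All 9 follicle cell markers were above background in each abdomen sample and none in any head/thorax sample, while all 3 photoreceptor markers were above background in each head/thorax sample and none in any abdomen sample. In both genotypes all 4 flight muscle, all 4 neuron and all 4 hemocyte markers were lower in abdomen. Summed fat body markers were 38832 to 40390 in loj and 40123 to 42299 in control abdomens, and 56975 to 59759 in loj and 53736 to 55763 in control head/thoraces. Summed sperm and testis markers (5 genes) were 311 to 333 in loj and 293 to 367 in control abdomens and 391 to 589 in loj and 412 to 543 in control head/thoraces, with 1 of 5 above background. The median log2 change of the fat body markers, abdomen against head/thorax, was -0.39 in loj females and -0.27 in controls. After median centring it was 0.23 and 0.32, so its direction depended on the scaling. For sperm and testis markers it was -0.65 and -0.57, and after centring -0.024 and 0.027. None of the marker lists had a gene called between loj and control in either body part. Of all probe sets, 0.618% were called higher and 0.256% lower in abdomen, and 1.09% and 0.778% in head/thorax. The part of cell composition in the differences between body parts was not tested.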

How the data were processed

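RNA of 12 samples, 3 each of loj abdomen, control abdomen, loj head/thorax and control head/thorax, was hybridized to 1 Affymetrix Drosophila Genome 2.0 array each. The deposited tables give 1 linear intensity per probe set. The authors used 3 summaries (GCOS, and dChip with or without mismatch probes), and GCOS 1.2 is listed in the submitters' processing notes. No source used here says which summary was deposited or what scaling was applied. Among the probe sets tested, 4546 values (2.02%) were below 0.

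After 183 control probe sets had been left out, intensities were floored at 1 and log2 transformed. Each comparison was fitted with limma 3.58.1 in R 4.3.3 (empirical Bayes with an intensity trend) over 18769 probe sets, with Benjamini-Hochberg adjustment; a call needs an adjusted p under 0.05 and 1.5-fold (for the difference between body parts in the loj change, the adjusted p only). The fits were tested on simulated data. With 3 arrays per group, the number of arrays limits the precision. The samples were separate RNA extractions of pooled females; the p-values measure the spread between such pools. Gene names are those of the platform's annotation, by which 13647 probe sets have 1 symbol, 402 several and 4720 none.

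Alternatives were median centring, quantile normalization, adding 32, leaving out dim probe sets, an unadjusted p under 0.001, 1 probe set per gene, the replicate number as a block and leaving out each array; a restriction to probe sets above background and the settings run for mRpL24 were added after the values were seen. Whether replicate numbers pair samples was checked by the correlation of deviations from the group means over the brighter 50% of probe sets. For samples of the same number it was 0.13, 0.11 and 0.13 for loj and control head/thorax. For the body parts of loj females it was 0.38, 0.17 and 0.36, and all of these were above 0.1. It was not above 0.1 in every pair for abdomens (-0.0099, 0.081 and 0.20) or the body parts of controls (0.030, 0.12 and 0.28). Between samples of different number the highest was 0.057 for head/thorax and -0.038 for the body parts of loj females. It was 0.24 for abdomens and 0.13 for the body parts of controls.

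The members and all gene lists were chosen with earlier results of these data known. Named are ribosomal protein genes with a paralog or a -like name, the stalk and ubiquitin-fused proteins, RpL32, up to 8 called in each direction, and the 3 brightest and 3 dimmest; other names, given for a count or a spread, were chosen after their values were seen. For other lists, up to 3 called genes are named. The gene tsr, listed under ribosome biogenesis by mistake (it encodes an actin-severing protein), was removed after its values were seen.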

Additional observations from a re-analysis of the deposited data

How the results depend on the processing

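The array scale, the background level and 3 samples per group limit these results. For loj against control, 0 ribosomal protein probe sets were called in abdomen under any alternative. In head/thorax the 1 called lower (the dim RpL3) became 0 with adding 32, without dim probe sets, at an unadjusted p under 0.001, with 1 probe set per gene, among probe sets above background, with the replicate block (adjusted p 0.121), and with any array left out (lowest 0, highest 0). The log2 change of RpL32 in head/thorax was -0.016 with median centring, -0.013 with quantile normalization and -0.022 to 0.021 with an array left out. For the difference in loj change between body parts, the median of the 47 was -0.015 with centring, and RpL32 had -0.0044 with centring, -0.014 with quantile normalization and -0.0013 to 0.052 with an array left out.

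For abdomen against head/thorax in loj females, the number called higher was 35 with centring, 9 with quantile normalization and 3 without dim probe sets, at an unadjusted p under 0.001 and among probe sets above background. The number called lower was 0 in these 5 settings. With an array left out it was 0 to 3: 0 without loj abdomen replicate 2 or loj head/thorax replicate 3, 2 without loj abdomen replicate 3 and 3 without loj head/thorax replicate 1. The median log2 change was 0.65 with centring and 0.22 with quantile normalization. RpL32 had 0.62 with centring, 0.15 with quantile normalization and -0.031 to 0.013 with an array left out, and RpS10a had 0.10 with centring. In controls, the number called higher was 35, 10, 3, 3 and 3 in the same 5 settings. The number called lower was 0 without dim probe sets and among those above background, and 1 to 3 with an array left out, 3 being without control head/thorax replicate 1. The median was 0.61 with centring, 0.19 with quantile normalization and 0.019 to 0.040 with an array left out, and RpL32 ranged from -0.0060 to 0.037 with an array left out. With the replicate block, 4 were called higher and 1 lower in each genotype, with the call lost for RpL22-like in loj females (adjusted p 0.0802) and for the dim RpS29 in controls (adjusted p 0.0587), and no other call of a ribosomal protein probe set at 1.5-fold changed. RpS5b, RpLP0-like and RpL7-like remained called higher in abdomen in both genotypes under every alternative, with adjusted p up to 0.00224.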

Other observations

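A total of 3 probe sets are annotated to a ribosomal protein gene together with another gene, and so are not among the 47. The one for euc and RpLP0 read 11.8 to 27.9 in loj abdomens against 706 to 1196 in loj head/thoraces, and 8.18 to 16.2 in control abdomens against 647 to 747 in control head/thoraces (adjusted p = 8.68e-06 in loj females and 2.11e-06 in controls, limma). The one for CG34164 and RpL7-like was also lower in abdomen, at 82.8 to 116 in loj abdomens against 492 to 652 in loj head/thoraces and 104 to 130 in control abdomens against 654 to 754 in control head/thoraces, while the RpL7-like probe set of its own was higher there. Which of the paired genes gives these signals was not tested. The one for a small nucleolar RNA and RpL28 read 125 to 176 in loj against 209 to 222 in control head/thoraces, with no overlap and an adjusted p of 0.114 (limma). Rack1, a protein of the small subunit under a symbol outside the rule, read 11735 to 12649 in loj abdomens and 11594 to 12711 in control abdomens. It read 10861 to 11777 in loj head/thoraces and 10434 to 11203 in control head/thoraces. As deposited, it was not called in any comparison, and other scalings are not given for it.

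The mitochondrial ribosomal protein gene mRpL24 averaged 947 in loj abdomens against 1526 in control abdomens (log2 change -0.68, adjusted p = 0.0440, limma) and 779 in loj head/thoraces against 1345 in control head/thoraces (log2 change -0.79, adjusted p = 0.00203, limma). Only the call in head/thorax was kept with median centring, the replicate block and each array left out.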
